A study of Botryllus schlosseri with 12 samples.

Results

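The contigs described here were low at 6 h after whole-colony injury and higher both before and after that time point. A contig is a transcript assembled without a genome, and 126 of the 32561 deposited contigs (0.387%) had this profile. They were chosen on measured values. CPM is the estimated count of a contig divided by its library total and multiplied by 1000000. The mean of log2(CPM + 1) at 6 h post-injury (hpi) had to lie at least 1 below the lowest of the means at 0, 18 and 24 hpi, a gap called the depth of the dip. The highest library of 6 hpi had to lie below the lowest of the 9 other libraries, and the mean CPM over all 12 libraries had to be at least 5 and under 500. The fall at 6 hpi and the return after it are therefore properties of the selection, and they are given as a description without a test.

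The RNA came from 12 subclones of a single isogenic Botryllus schlosseri strain, each grown on its own glass slide. The species is a colonial tunicate. All zooids and buds were cut out of every colony at stage D, the point of the budding cycle at which the adult zooids regress. The remaining tunic and vasculature were collected at 0, 6, 18 or 24 hpi, with 3 libraries per time point, each from a separate subclone. All 12 samples thus carry the injury, none comes from an intact colony, and the reference throughout is tissue taken directly after surgery. P-values measure the spread between subclones of this strain only. RNA of the 12 samples was extracted in the same round. In such bulk RNA, fewer cells of a type and less RNA per cell cannot be told apart.

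In Botryllus the zooids of a colony lie in a common tunic and are joined by blood vessels that end at the colony margin in contractile ampullae, through which hemocytes circulate. When every zooid and bud is lost, the vascular system contracts and remodels. A new bud can then appear in it and grow into a whole zooid, a process named whole-body regeneration or vascular budding. The study proposes that such buds arise from small tissue fragments of the injured zooids that remain in the tunic and move into the vessels. The time points fall in the phase of wound response and vessel remodeling that comes before such a bud is visible. A contig that is low only in the first hours can stand for any kind of gene, and the rows of the table carry no gene names. The gene table of the reference assembly matched 0 of the contig identifiers, and the shortened copy of the study's annotation table used here gave no name for any member. The members are therefore described by level, timing, assembly group and read assignment, and the labelled tissue could not be checked against marker genes.

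The library totals ranged from 2397316 to 2693477 estimated counts at 6 hpi and from 2076597 to 3992991 over the 9 other libraries. The 6 hpi libraries were thus at the low end, and the smallest of all was replicate 2 of 24 hpi. The rule itself places every member higher in that library than in any library of 6 hpi. Over the 25956 contigs in the same range of mean CPM, the median CPM lay between 14.9 and 17.2 in every library.

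Together the 126 contigs held 3678, 3779.5 and 4031 CPM in the 3 libraries of 0 hpi, and 1167, 1201 and 1172 CPM in those of 6 hpi. At 18 hpi they held 3858, 3923 and 4082 CPM, and at 24 hpi 4685, 4257 and 4281 CPM. The 3 libraries of 6 hpi stood far below the other 9, as the rule requires and lay close together. The summed level averaged 3829.5 ± 182 CPM directly after surgery, 1179.8 ± 18.6 CPM at 6 hpi, 3954 ± 115 CPM at 18 hpi and 4408 ± 241 CPM at 24 hpi (SD, n = 3 each). For single contigs, their mean CPM had a median of 15.6 at 0 hpi and 4.56 at 6 hpi, and of 16.1 at both 18 and 24 hpi. In the plot of the 126 profiles every line has its lowest point at 6 hpi, and the lines differ in whether they end above or below their start.

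**Figure D1:**
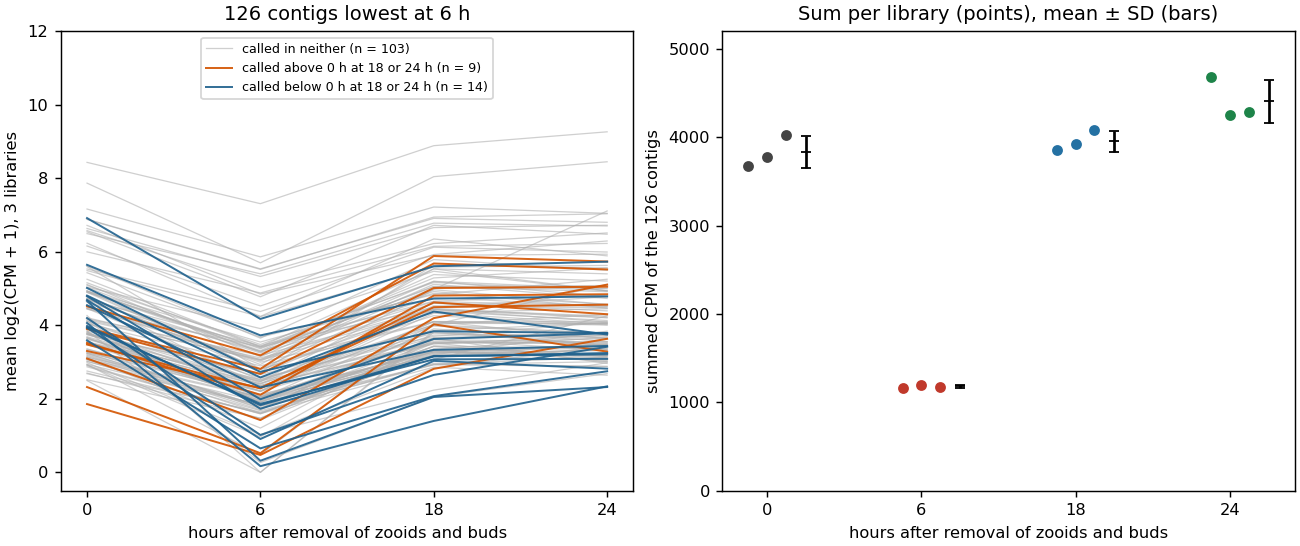
Left, mean log2(CPM + 1) of 3 libraries for each of the 126 contigs at 0, 6, 18 and 24 h after removal of zooids and buds, colored by whether the contig was called above (9) or below (14) its 0 hpi level at 18 or 24 hpi or in neither direction (103). Right, summed CPM of the 126 contigs in each library (points) with the mean ± SD of 3 libraries (bars), at 1179.8 CPM on average at 6 hpi and 3829.5 CPM at 0 hpi.

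Most dips were close to the size the rule demands. The depth had a median of 1.26 log2 units, with quartiles at 1.12 and 1.53. In 35 contigs it was at least 1.5 and in 6 at least 2. As a ratio of the mean CPM over 0, 18 and 24 hpi to that at 6 hpi, the smallest was 2.22 and the median 3.44 among the 124 contigs with any count at 6 hpi. The 3 contigs just inside the threshold had depths of 1.0009, 1.0021 and 1.0065, and the 3 just outside it, also without overlap of libraries, had 0.9999, 0.9982 and 0.9955. The number of members depends on where this line is drawn, with 246 contigs at a depth of 0.75 and 35 at 1.5. It depends on the separation of the libraries as well. Of the 240 contigs in the range of mean CPM that reached the depth, 114 had an overlap between 6 hpi and another library, and with replicate 1, 2 or 3 of 6 hpi left out the rule took 193, 195 or 209 contigs.

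The members spanned low to moderate levels. Their mean CPM over the 12 libraries had a median of 13.6, against 16.6 for all contigs in the range, and 35.7% of them lay under 10 CPM, against 27.4% of the range. Of the 126, 45 were under 10 CPM, 65 between 10 and 50, and 16 at 50 or more, of which 4 reached 100. At 6 hpi the counts behind the values were small. The median member had at most 12 estimated counts in a library of 6 hpi, against 28.5 to 66.6 in the other 9 libraries, and 53 members had fewer than 30 counts in the 3 libraries of 6 hpi together. Of the 126 contigs, 12 were at 0 in at least 1 library of 6 hpi and 2 were at 0 in all 3. For these contigs the depth is limited by the pseudocount of 1 and by the counts available.

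The deepest dips belonged to those 2 contigs. TRINITY_DN16369_c5_g2_i7.p1 had 24.9, 22.6 and 10.7 CPM at 0 hpi, 0 in the 3 libraries of 6 hpi, 11.5, 14.7 and 12.9 CPM at 18 hpi and 5.82, 12.2 and 14.2 CPM at 24 hpi. Its depth was 3.47 log2 units. Taking 3 counts over the 3 libraries as the limit that a count of 0 allows (0.397 CPM), its level at 6 hpi was at least 48.5-fold lower than at 0 hpi, at least 33.3-fold lower than at 18 hpi and at least 26.5-fold lower than at 24 hpi. TRINITY_DN16297_c0_g1_i2.p2 had 3.48, 9.40 and 2.86 CPM at 0 hpi, 0 in the 3 libraries of 6 hpi, 14.4, 18.4 and 8.97 CPM at 18 hpi and 17.6, 9.10 and 5.79 CPM at 24 hpi. Its depth was 2.50, and its level at 6 hpi was at least 14.0-fold lower than at 0 hpi, at least 36.1-fold lower than at 18 hpi and at least 27.9-fold lower than at 24 hpi. These limits cover counting error only. Both contigs belong to Trinity genes, the assembler's groups of related transcripts, that kept counts at 6 hpi through their other contigs, and both had reads that were divided among contigs.

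The contrasts that the rule used were also run through edgeR's quasi-likelihood test on all contigs, where a contig was called if its log2 fold change exceeded 1 in size and its p, adjusted by Benjamini-Hochberg, was below 0.05. All 126 members passed the filter on low counts, as did 31383 contigs in all. At 6 against 0 hpi, 104 of the 126 were called lower, where 5.03% of all tested contigs were. At 18 against 6 hpi, 91 were called higher, where 1.6% of all contigs were, and at 24 against 6 hpi 107 were called higher, where 2.01% of all contigs were. Since the selection used these contrasts, the counts are a description of the members only. The members not called at 6 against 0 hpi had a fall that met the rule and did not pass this test.

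Whether the members stood above or below their start after the dip was not set by the rule, but how far below was limited. The rule holds the means of 18 and 24 hpi at least 1 log2 unit above that of 6 hpi. On that scale, a member's fall from 0 to 18 or 24 hpi must be at least 1 unit smaller than its fall to 6 hpi. The background of all tested contigs carries no such limit. At 18 against 0 hpi, 5 members were called higher (3.97% of 126) and 13 lower (10.3%), against 2.93% higher and 7.08% lower of all tested contigs. At 24 against 0 hpi, 7 were called higher (5.56%) and 7 lower (5.56%), against 3.54% and 6.54% of all. These shares are near the background. The median log2 fold change of the members was −0.072 at 18 against 0 hpi (0.0095 over all tested contigs) and −0.031 at 24 against 0 hpi (0.013 over all). The single values ran from −3.86 to 1.85 at 18 against 0 hpi and from −3.48 to 2.28 at 24 against 0 hpi, so that the median near 0 holds contigs on both sides.

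With libraries scaled by their totals alone, 8 members were called higher and 9 lower at 18 against 0 hpi, beside 5 and 13 with TMM. The shares of all tested contigs moved the same way, from 2.93% to 4.59% higher and from 7.08% to 5.97% lower. The median was 0.091 for the members and 0.17 over all tested contigs, beside −0.072 and 0.0095 with TMM. The counts rest on single libraries as well. At 18 against 0 hpi, the number of members called lower was 3 or 7 with replicate 2 or 3 of 18 hpi left out. It was 8 or 7 with replicate 1 or 2 of 0 hpi left out. The share of all tested contigs called lower was 5.69%, 5.71%, 5.99% and 6.19% in these fits, against 7.08% with all libraries. The number of members called higher was 3 without replicate 2 or 3 of 18 hpi. It was 8 without replicate 1 of 6 or 24 hpi, and 10 without replicate 2 of 24 hpi. Of all tested contigs, 2.44% to 3.1% were called higher in these fits. At 24 against 0 hpi, the number of members called higher was 4 without replicate 2 of 0 hpi or replicate 3 of 24 hpi. With replicate 2 of 24 hpi left out it was 11. These fits called 3.19% to 3.35% of all tested contigs higher. The number of members called lower was 4 without replicate 1 of 0 hpi or replicate 1 or 3 of 24 hpi. It was 11 when replicate 2 of 24 hpi was left out. These fits called 5.32% to 6.25% of all tested contigs lower.

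Between 24 and 18 hpi, 0 members were called in either direction by edgeR's quasi-likelihood test, by DESeq2 or by limma-voom. Of all tested contigs, edgeR called 0.0223% higher and 0.00319% lower. Without replicate 1 of 24 hpi these shares were 0.465% and 0.0786%, and 0 members were called in either direction. With all 12 libraries, 8 members were higher and 0 lower at an unadjusted edgeR p under 0.05. The median log2 fold change of the members was 0.10 (0.014 over all tested contigs), and 80 of the 126 had a positive value, where 51.7% of all contigs did. With libraries scaled by their totals alone this median was 0.0021, while that over all tested contigs was −0.087.

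**Figure D2:**
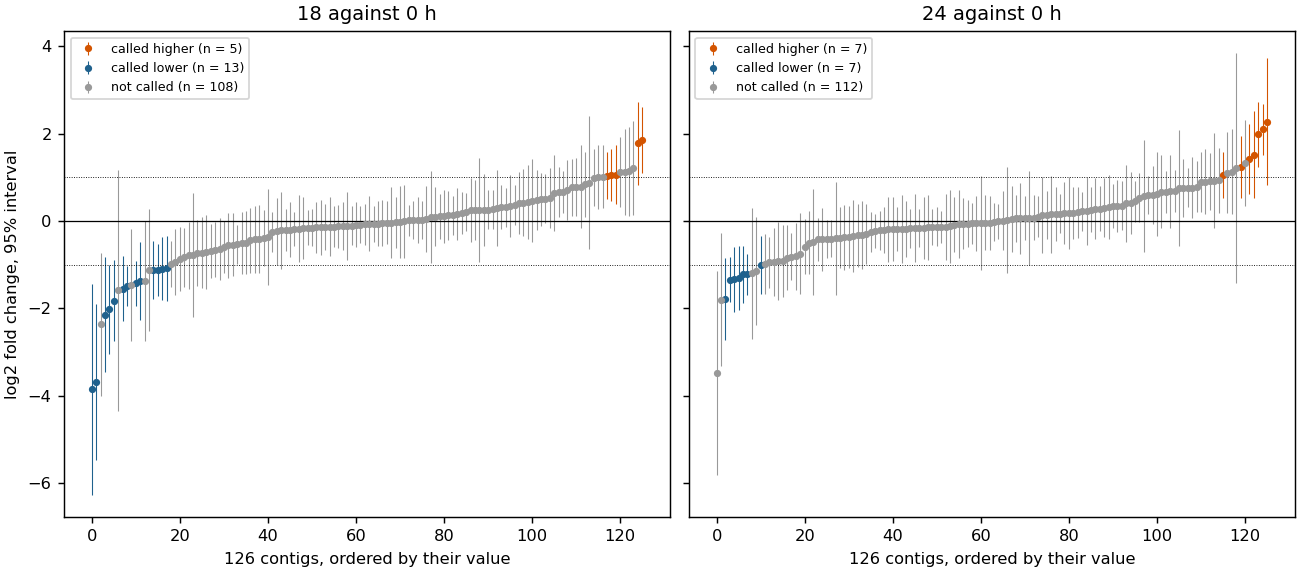
Log2 fold changes of the 126 contigs at 18 against 0 hpi (left) and 24 against 0 hpi (right), ordered by value, with 95% intervals from the edgeR fit as vertical lines and dotted lines at −1 and 1. The contigs called higher (5 at 18 hpi, 7 at 24 hpi) and lower (13 at 18 hpi, 7 at 24 hpi) lie at the ends, and the medians are −0.072 and −0.031.

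By these 2 contrasts the members fall into 3 sets. Of the 126, 9 were called above their 0 hpi level at 18 or 24 hpi, 14 below it, and 103 in neither direction. No member was called above at 1 time point and below at the other. In 42 of the 103 the 95% interval of the log2 fold change lay within 1 unit of 0 at both 18 and 24 hpi, and in 78 it included 0 at both. For all of the 103 outside those 42, the interval reached past a 2-fold change at 18 or 24 hpi, including many of the 78.

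The 9 contigs above their starting level had a median of 10.2 CPM at 0 hpi, 4.26 CPM at 6 hpi, 24.0 CPM at 18 hpi and 32.9 CPM at 24 hpi, and 3 of them were called at both times. The 14 contigs below it had a median of 25.7 CPM at 0 hpi, 2.74 CPM at 6 hpi, 8.35 CPM at 18 hpi and 9.46 CPM at 24 hpi, and 6 of them were called at both. The 103 others had 15.6, 4.94, 16.2 and 16.6 CPM at the 4 time points. The 9 and the 14 contigs came from 9 and 14 separate Trinity components, which are the assembler's wider groups of transcripts with shared sequence. Divided reads were present in 5 of the 9, in 1 of the 14 and in 41 of the 103.

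Of the contigs above their starting level, TRINITY_DN13463_c2_g1_i1.p1 had 8.48, 6.51 and 7.79 CPM at 0 hpi and 3.16, 0.827 and 1.53 CPM at 6 hpi. It then had 19.6, 19.2 and 13.8 CPM at 18 hpi and 39.5, 37.0 and 25.6 CPM at 24 hpi. Every library of 24 hpi lay above every library of 18 hpi, and these above every library of 0 hpi. The naming rule chose this contig and TRINITY_DN17942_c6_g4_i1.p1 as the 2 highest at 24 against 0 hpi among called members without library overlap. The separation and call of both in that contrast were set by this choice. TRINITY_DN13463_c2_g1_i1.p1 rose at 24 against 0 hpi by a log2 fold change of 2.10 (SE 0.280, edgeR adjusted p = 5.5e-05). The change at 18 against 0 hpi was 1.05 (SE 0.286, adjusted p = 0.0188), a call that was lost on the fold or on the adjusted p with replicate 2 of 0 hpi or replicate 1 or 2 of 18 hpi left out, with counts thinned to the smallest library, or in glmTreat, while the call at 24 against 0 hpi held in glmTreat (adjusted p = 0.0039). The value at 24 against 18 hpi was 1.05 (SE 0.261) with an adjusted p of 0.339.

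TRINITY_DN17942_c6_g4_i1.p1 had 19.0, 10.3 and 14.4 CPM at 0 hpi and 6.89, 7.09 and 4.46 CPM at 6 hpi. At 18 hpi it had 52.0, 58.6 and 64.4 CPM, and at 24 hpi 104.5, 28.4 and 47.8 CPM. All libraries of 18 and 24 hpi were above all of 0 hpi, while the 3 libraries of 24 hpi were spread around those of 18 hpi. It rose by 1.85 at 18 against 0 hpi (SE 0.350, edgeR adjusted p = 0.0024) and by 1.98 at 24 against 0 hpi (SE 0.350, adjusted p = 0.00139), both on the log2 scale. Tested against a log2 fold change of 1 by glmTreat, the adjusted p was 0.0783 at 18 against 0 hpi and 0.0393 at 24 against 0 hpi. Its dip was shallow, with a depth of 1.11, and its difference at 6 against 0 hpi, −1.25 (SE 0.426), did not pass the edgeR test (adjusted p = 0.0713). The selection used that contrast, so the value is a description only. TRINITY_DN14546_c3_g6_i2.p1, chosen after its values were seen as the third contig above its start at both times, had a log2 fold change of 1.04 at 18 against 0 hpi (SE 0.250, adjusted p = 0.0085) and 1.05 at 24 against 0 hpi (SE 0.252, adjusted p = 0.0084), with an adjusted p of 1 in glmTreat in both.

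Of the contigs below their starting level, TRINITY_DN17466_c2_g4_i2.p1 had 27.1, 27.3 and 41.6 CPM at 0 hpi and 6.89, 5.84 and 4.46 CPM at 6 hpi. It came back to 12.8, 12.7 and 14.5 CPM at 18 hpi and to 17.3, 13.5 and 8.99 CPM at 24 hpi, above every 6 hpi library and below every 0 hpi library. It fell by 1.42 at 18 against 0 hpi (SE 0.246, edgeR adjusted p = 0.000637) and by 1.34 at 24 against 0 hpi (SE 0.247, adjusted p = 0.0011) on the log2 scale. Both calls held with DESeq2, with limma-voom, under the other scalings and filters and with each library left out, but not in edgeR's glmTreat, which tests against a log2 fold change of 1 (adjusted p = 0.24 at 18 against 0 hpi and 0.407 at 24 against 0 hpi).

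TRINITY_DN19493_c0_g1_i1.p1 had 18.0, 17.8 and 47.3 CPM at 0 hpi and 3.24, 1.67 and 2.23 CPM at 6 hpi. It had 14.2, 7.13 and 4.82 CPM at 18 hpi and 8.14, 11.6 and 5.90 CPM at 24 hpi. The 0 hpi libraries lay above those of 18 and 24 hpi, with replicate 3 of 0 hpi well above the other two. It fell by 1.82 at 18 against 0 hpi (SE 0.437, edgeR adjusted p = 0.0108) and by 1.78 at 24 against 0 hpi (SE 0.442, adjusted p = 0.0132) on the log2 scale. Without that library the values were −1.19 (adjusted p = 0.0687) and −1.15 (adjusted p = 0.0813), and the call was also lost at 18 against 0 hpi with replicate 2 or 3 of 18 hpi left out, and at 24 against 0 hpi with replicate 1 or 3 of 24 hpi left out. In glmTreat the adjusted p was 0.199 at 18 against 0 hpi and 0.233 at 24 against 0 hpi.

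TRINITY_DN8966_c0_g1_i1.p1 is the most abundant of these 14 contigs and was chosen after its values were seen. It had 118.7, 104.4 and 138.8 CPM at 0 hpi, 16.2, 17.5 and 17.4 CPM at 6 hpi, 49.2, 53.1 and 41.6 CPM at 18 hpi and 42.3, 73.2 and 45.7 CPM at 24 hpi. Its groups at 18 and 24 hpi overlapped each other and lay between those of 6 and 0 hpi. The log2 fold change was −1.49 at 18 against 0 hpi (SE 0.221, edgeR adjusted p = 0.000154) and −1.22 at 24 against 0 hpi (SE 0.220, adjusted p = 0.000896), and neither call held in glmTreat (adjusted p = 0.103 and 0.671).

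Neither of the 2 contigs that were at 0 at 6 hpi was called on return. TRINITY_DN16369_c5_g2_i7.p1 had −0.72 at 18 against 0 hpi (SE 0.380, edgeR adjusted p = 0.252) and −0.91 at 24 against 0 hpi (SE 0.388, adjusted p = 0.149), and without replicate 3 of 0 hpi the value at 24 against 0 hpi was −1.20 (adjusted p = 0.043). TRINITY_DN16297_c0_g1_i2.p2 had 1.22 at 18 against 0 hpi (SE 0.498, adjusted p = 0.136) and 0.93 at 24 against 0 hpi (SE 0.505, adjusted p = 0.275). Without replicate 2 of 0 hpi, its highest library at that time, these values were 2.01 (adjusted p = 0.0204) and 1.72 (adjusted p = 0.0472). The plot of the 6 contigs named by rule shows how the single libraries lie.

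**Figure D3:**
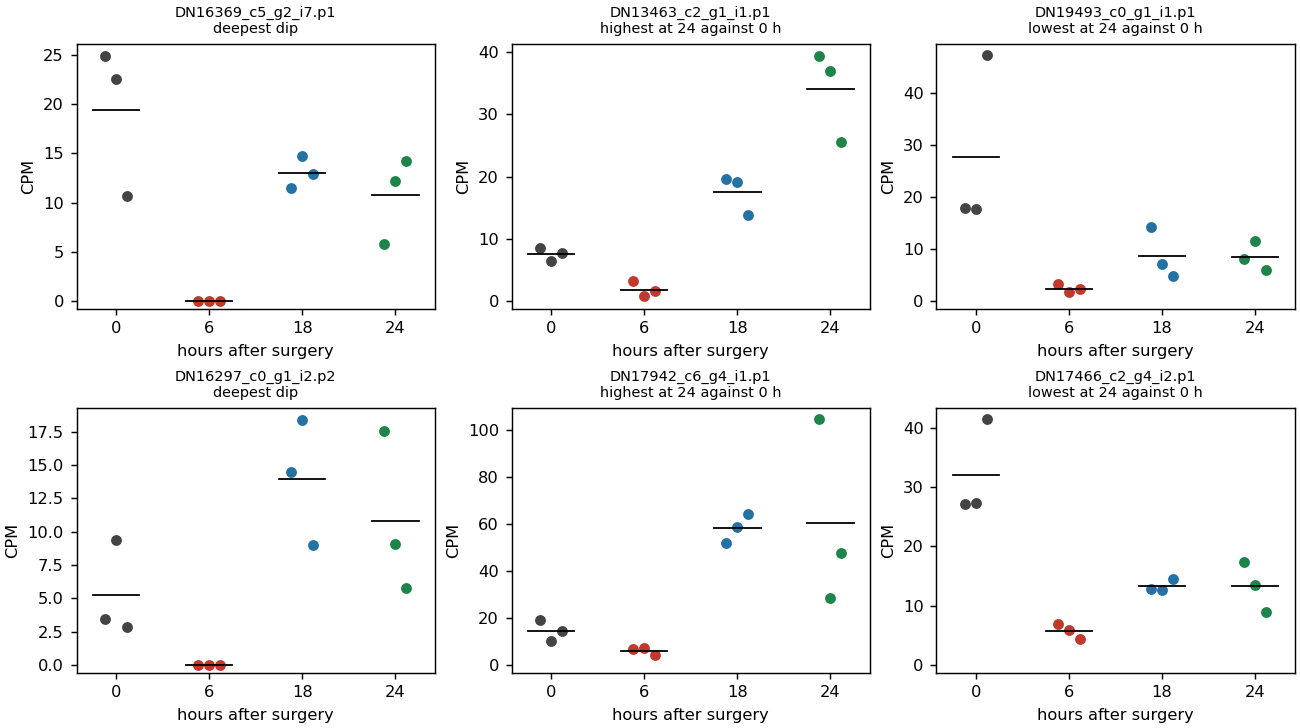
CPM of the 6 contigs named by rule at 0, 6, 18 and 24 h after surgery, with a point for each library and a line at the mean of 3 libraries. The left pair is at 0 CPM in all libraries of 6 hpi, the middle pair is higher at 24 against 0 hpi (log2 fold changes 2.10 and 1.98), and the right pair is lower (−1.78 and −1.34).

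TRINITY_DN17597_c0_g5_i1.p1, singled out after its values were seen, combined a high level with a deep dip. It had 211, 294 and 203 CPM at 0 hpi, 33.6, 70.5 and 55.7 CPM at 6 hpi, 269, 279.9 and 242 CPM at 18 hpi and 183, 409.8 and 563 CPM at 24 hpi. Its depth was 2.17 log2 units. The libraries of 24 hpi ranged from below to far above those of 0 hpi, and the log2 fold change of 0.68 at 24 against 0 hpi (SE 0.385, edgeR adjusted p = 0.302) was within that spread. At 18 against 0 hpi the value was −0.0082 (SE 0.384), with a 95% interval from −0.85 to 0.83.

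Some members came from the same assembly group. The 126 contigs belong to 117 Trinity genes and 99 Trinity components. Of the genes, 6 held 2 or more members, with 15 members in all, and 15 components held 2 or more, with 42 members in all. Contigs of a gene or component share sequence, and Kallisto can divide a read among them, so they do not count as separate observations of a dip. Estimates that were not whole numbers, the sign of such division, were found in 47 of the 126 members (37.3%), against 29.3% of all contigs in the range. The encoded reading frame was the first of its contig in 113 members (89.7%), against 94.1% of the range.

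The largest group was the component TRINITY_DN17880_c1. It has 12 contigs, of which 10 lie in the range of mean CPM, and all 10 met the rule. The 2 others averaged 2.37 and 2.60 CPM. The depths of the 10 ran from 1.02 to 1.85, with a median of 1.63, and their mean levels from 22.0 to 78.3 CPM. Only 2 of the 10 had divided reads. Summed over the 12 contigs, the component held 482, 412 and 529.8 CPM at 0 hpi, 151, 126 and 134 CPM at 6 hpi, 428, 486 and 613 CPM at 18 hpi and 502, 437 and 367 CPM at 24 hpi. The libraries of 0, 18 and 24 hpi overlapped, and all 3 of 6 hpi lay far below them.

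Its most abundant contig, TRINITY_DN17880_c1_g17_i1.p1, had 95.3, 75.6 and 108.8 CPM at 0 hpi, 29.2, 22.9 and 27.5 CPM at 6 hpi, 89.4, 103.8 and 122.9 CPM at 18 hpi and 90.9, 90.5 and 83.2 CPM at 24 hpi. The return was close to the start. The log2 fold change was 0.01 at 18 against 0 hpi (SE 0.172, 95% interval −0.35 to 0.38) and −0.13 at 24 against 0 hpi (SE 0.173, 95% interval −0.50 to 0.23). Over the 10 members the values ran from −0.20 to 0.02 at 18 against 0 hpi and from −0.42 to 0.08 at 24 against 0 hpi. None of them was called by edgeR, with a lowest adjusted p of 0.593 and 0.21 in these 2 contrasts.

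**Figure D4:**
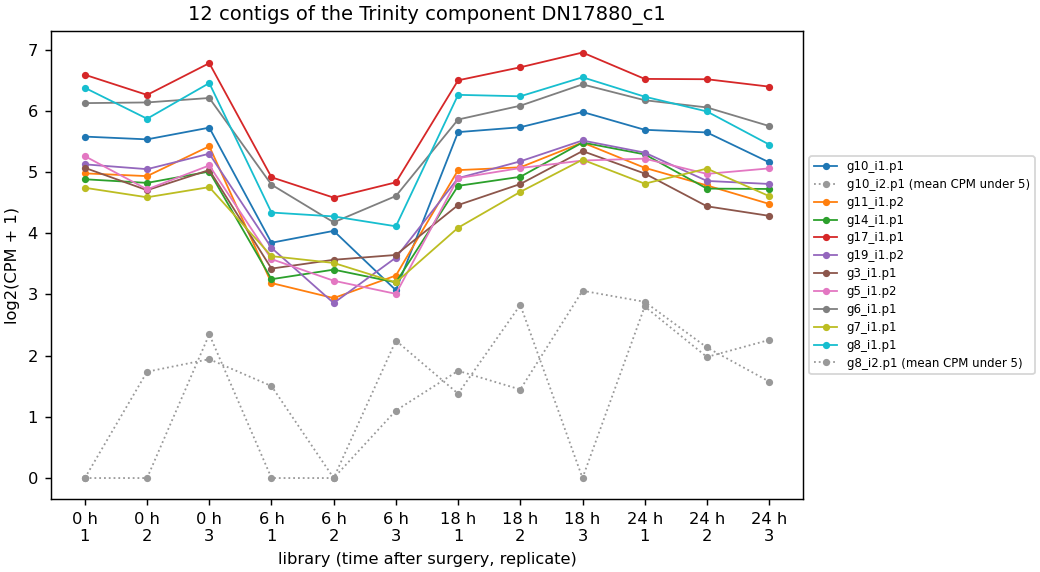
log2(CPM + 1) of the 12 contigs of the Trinity component TRINITY_DN17880_c1 in each of the 12 libraries, ordered by time after surgery. The 10 solid lines, with mean levels from 22.0 to 78.3 CPM, are lowest in the 3 libraries of 6 hpi, and the 2 dotted gray lines are the contigs with a mean of 2.37 and 2.60 CPM.

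In other groups the members did not all come back to where they had begun. The 2 contigs of TRINITY_DN17922_c3_g1 are both members and include the most abundant of the 126, with a mean of 399.9 CPM. Together they held 317, 354 and 528 CPM at 0 hpi, 143, 201 and 194 CPM at 6 hpi, 494, 549 and 556 CPM at 18 hpi and 637, 754 and 688 CPM at 24 hpi. All 3 libraries of 24 hpi were above all of 0 hpi and of 18 hpi. The log2 fold changes at 24 against 0 hpi were 0.76 (SE 0.210, edgeR adjusted p = 0.0211) and 0.67 (SE 0.230, adjusted p = 0.0624), both under the fold needed for a call. The smaller contig, TRINITY_DN17922_c3_g1_i11.p1, took 11.6%, 11.1%, 11.3% and 11.2% of the gene's CPM at 0, 6, 18 and 24 hpi, so the pair dipped in a near constant ratio.

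All 4 contigs of TRINITY_DN17492_c3_g2 were members, with depths from 1.08 to 1.41, and all had divided reads. They held 52.6, 41.6 and 52.2 CPM in sum at 0 hpi, 22.3, 18.4 and 16.3 CPM at 6 hpi, 90.5, 103.3 and 117.4 CPM at 18 hpi and 165, 47.2 and 101.4 CPM at 24 hpi. The log2 fold changes ran from 0.71 to 1.14 at 18 against 0 hpi with none called, and from 0.76 to 1.52 at 24 against 0 hpi with 1 called. The 3 contigs of TRINITY_DN18431_c4_g1 were likewise all members, with depths from 1.38 to 2.08. They summed to 63.1, 47.3 and 46.8 CPM at 0 hpi, 15.0, 15.4 and 11.1 CPM at 6 hpi, 80.2, 90.3 and 89.5 CPM at 18 hpi and 139.2, 63.1 and 84.7 CPM at 24 hpi, and 1 of the 3 was called higher at 24 against 0 hpi. In both genes replicate 1 of 24 hpi was the highest library and replicate 2 of 24 hpi the lowest of its time.

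A different case was TRINITY_DN18293_c0, a component of 16 contigs. The mean of every one of the 16 was lowest at 6 hpi, in 5 the 6 hpi libraries lay below all others, and 2 met the whole rule. In sum it held 631, 469 and 523 CPM at 0 hpi, 158, 248 and 204 CPM at 6 hpi, 447, 453 and 620.5 CPM at 18 hpi and 272, 482 and 376 CPM at 24 hpi. The groups did not overlap with 6 hpi, and the depth of the sum was 0.87, under the line for a single contig.

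The level of a whole Trinity gene was described by summing its contigs, a sum that includes the member chosen for its dip. Of the 126 members, 48 share their gene with at least 1 other contig (38.1%, against 31.9% of the contigs in the range). The sum was lowest at 6 hpi for 43 of these 48, its 6 hpi libraries lay below all others for 37, and it met both conditions of the rule for 27. The median depth was 1.13 for the sums and 1.27 for the 48 contigs. Since some members share a gene, the 48 stand for 39 genes, of which 34 were lowest at 6 hpi in sum, 28 had their 6 hpi libraries below all others and 18 met both conditions. The other contigs of the gene, summed without the member, had their lowest mean at 6 hpi for 35 of the 48, with a median depth of 0.63, and a depth of at least 1 for 18. For 15 of the 48 these other contigs include another member. Of the 25956 single contigs in the range, 7655 had their lowest mean at 6 hpi. In 853 of them the 6 hpi libraries lay below all others. Such shares were not taken over all gene sums, so the counts for sums have no direct reference. Summed over Trinity components instead, 105 members had company and the sum met both conditions for 51.

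In a few genes the other contigs went the opposite way. For 4 of the 48 members the other contigs of the gene together had their highest mean at 6 hpi. In 1 gene they also belonged to the 386 contigs that meet the mirrored rule of a peak at 6 hpi. TRINITY_DN14406_c7_g1_i3.p1 had 11.8, 7.95 and 4.23 CPM at 0 hpi, 3.16, 2.74 and 3.52 CPM at 6 hpi, 9.21, 9.39 and 7.60 CPM at 18 hpi and 14.2, 4.83 and 7.06 CPM at 24 hpi. The 2 other contigs of its gene, both in the peak set, together had 24.1, 24.4 and 25.8 CPM at 0 hpi, 134.6, 107.9 and 111.9 CPM at 6 hpi, 30.4, 27.8 and 23.0 CPM at 18 hpi and 27.9, 38.0 and 35.0 CPM at 24 hpi. The contig thus held 23.8%, 2.61%, 24.4% and 20.6% of its gene's CPM at 0, 6, 18 and 24 hpi, and the gene as a whole was highest at 6 hpi. Its reads were divided, so the split between the contigs is an estimate.

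TRINITY_DN14095_c3_g1_i3.p1 showed another kind of split, with a wide spread between libraries. It had 27.9, 229 and 16.1 CPM at 0 hpi, 11.8, 2.85 and 5.98 CPM at 6 hpi, 16.5, 28.3 and 60.2 CPM at 18 hpi and 548, 38.6 and 120.5 CPM at 24 hpi. Replicate 2 of 0 hpi and replicate 1 of 24 hpi stood far above the libraries of the same time. Its share of the gene was 51.4%, 8.88%, 19.8% and 76.8% at 0, 6, 18 and 24 hpi, and the libraries of the gene's sum overlapped. Its log2 fold change at 24 against 18 hpi was 2.80 (SE 1.23), the highest of the 126, with an edgeR adjusted p of 0.714. The contig TRINITY_DN16369_c5_g2_i7.p1, at 0 at 6 hpi, made up 9.5%, 0%, 10.2% and 8.3% of its gene at the 4 time points, and the sum of that gene had a depth of 0.97 with overlapping libraries. For TRINITY_DN16297_c0_g1_i2.p2 the shares were 17.7%, 0%, 35.5% and 23.7%, and the gene's sum had a depth of 1.29 and met the rule.

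**Figure D5:**
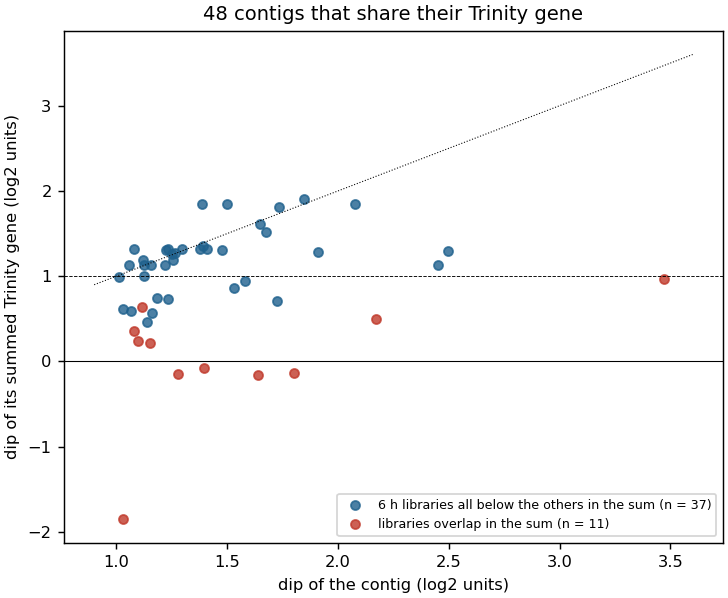
Depth of the dip of each of the 48 contigs that share their Trinity gene (horizontal, log2 units) against the depth for the summed contigs of that gene (vertical, log2 units), with a dotted line of equality. For 37 of the contigs the 6 hpi libraries of the sum all lay below the others (blue) and for the rest they overlapped (red), contigs of a shared gene have the same sum, and the lowest point, at −1.85, is the gene of TRINITY_DN14406_c7_g1_i3.p1.

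The spread between replicates of the members was like that of other contigs. The median biological coefficient of variation in the edgeR fit, the relative SD between subclones beyond counting error, was 0.242 for the 126 members and 0.224 for all 31383 tested contigs. The dip was met by 126 contigs and the mirrored peak by 386. On return, 3.97% of the dip contigs were called higher and 10.3% lower at 18 against 0 hpi, against 30 (7.77%) and 44 (11.4%) of the 386 peak contigs. At 24 against 0 hpi, 5.56% of the dip contigs were called in each direction, against 41 (10.6%) higher and 37 (9.59%) lower of the peak contigs. The 2 sets share all libraries, and the difference between them was not tested.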

How the data were processed

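RNA of the 12 subclones was sequenced as paired-end Illumina reads. The authors removed ribosomal reads, trimmed with Trimmomatic 0.30, assembled contigs without a genome, retained 1 open reading frame per contig, merged similar transcripts, and deposited Kallisto 0.43.1 estimated counts, which are normalized neither for library size nor for length. Reads that fit several contigs are divided among them by Kallisto. For the tests these estimated counts were rounded.

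Members and lists were chosen with earlier results of these data known. CPM for the rule used column sums of the unrounded values. The tests used R 4.3.3 and edgeR 4.0.16 with TMM factors, filterByExpr and robust quasi-likelihood fits of all 12 libraries, with Benjamini-Hochberg adjustment within each contrast over 31383 contigs. The scripts were checked on simulated counts. DESeq2 1.42.0 and limma 3.58.1 served as alternatives, beside other scalings, filters, thresholds and left-out libraries. No 2 replicates were alike enough to be the same library (chi-square per degree of freedom at least 3.14). Replicate 1 of 24 hpi was the least like its group, with 9.81 and 10.5, against 4.01 between replicates 2 and 3. The rule for naming took the 2 deepest dips and, among members called at 24 against 0 hpi without overlap of libraries, the 2 highest and the 2 lowest log2 fold changes. Contig sequences were not used here.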

Additional observations from a re-analysis of the deposited data

How the results depend on the processing

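The number of contigs that met the rule was 126. It was 37 with a pseudocount of 5, 35 at a depth of 1.5 and 246 at 0.75, and with single libraries left out it ranged from 127 to 209. Other scaling or thinning kept it within 1.5 times of 126. The lists were not the same, since 108 of 112 contigs with TMM sizes and 106 of 139 with thinned counts were among the 126. Without replicate 1 of 6 hpi, 106 of 193 were. With glmTreat, which tests against a log2 fold change of 1, the members called at 6 against 0, 18 against 6 and 24 against 6 hpi were 36, 31 and 33, and limma-voom called 66 at 24 against 6 hpi. With libraries left out these counts ranged from 88 to 114, from 70 to 98 and from 75 to 111. At 18 against 0 hpi glmTreat called 0 members higher and 1 lower, against 0.65% and 3.37% of all tested contigs. At 24 against 0 hpi it called 2 higher and 0 lower, against 0.95% and 3.09% of all. Limma-voom called 11 lower at 24 against 0 hpi, against 6.4% of all. Scaling by library totals alone moved the median of all contigs to 0.17 at 18 against 0 hpi and to 0.14 at 18 against 6 hpi. At 24 against 18 hpi it moved to −0.087. With this scaling 8 members were called higher at 18 against 0 hpi, where 4.59% of all contigs were. The member medians were 0.091 at 18 against 0 hpi and 0.0021 at 24 against 18 hpi. A set of 1 member per Trinity component, 99 in all, was chosen after the data were seen. In it, 3 were called higher and 13 lower at 18 against 0 hpi, against 2.93% and 7.08% of all contigs. At 24 against 0 hpi 4 were called higher and 7 lower, against 3.54% and 6.54% of all. With libraries left out, members called at 18 against 0 hpi ranged from 3 to 10 higher and from 3 to 14 lower. At 24 against 0 hpi they ranged from 4 to 11 in each direction. The shares of all contigs ran from 2.44% to 3.1% higher and from 5.69% to 7.31% lower at 18 against 0 hpi. At 24 against 0 hpi they ran from 3.19% to 4% higher and from 5.32% to 6.29% lower. The member medians then ranged from −0.092 to 0.022 at 18 against 0 hpi and from −0.06 to 0.05 at 24 against 0 hpi. At 24 against 18 hpi they ranged from 0.05 to 0.11. No setting called a member at 24 against 18 hpi. The sum over Trinity components met the rule for 51 members, and that over Trinity genes for 27. Of 228 values of the 6 contigs named by rule, 215 were called or left uncalled as in the main edgeR fit, glmTreat not counted. Of the others, 10 lost a call and 3 gained one, and 0 values changed sign. The 2 contigs at 0 at 6 hpi had no call in the main fit to keep. The causes of these changes were not tested.

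Replicate numbers did not pair the samples. Deviations of same-numbered libraries had correlations from −0.15 to 0.12 with 1 of 18 pairs over 0.1, and 2 of 12 libraries were closest to their own number. With the replicate number as a block, 8 members were called higher and 9 lower at 18 against 0 hpi, against 2.83% and 6.69% of all contigs. At 24 against 0 hpi 6 were called in each direction, against 3.33% higher and 6.2% lower of all.

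Small counts at 6 hpi limit the precision of each dip, and reads divided among contigs limit what can be said of single contigs.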
